A study of Homo sapiens with 5 samples.

Results

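One pair of libraries from HCT116, a human colorectal cancer cell line, was compared across all genes: the library labelled as knockdown of both SP1 and SP3 against the library labelled as knockdown of SP1 alone. These are 2 of the 5 samples of the series, and they were chosen by their labels, not by any measured value. The difference between them is therefore what changed where an siRNA against SP3 was added to an siRNA against SP1. The other samples are 2 libraries of the same cells labelled as control (control 1 and control 2) and 1 library with the SP3 siRNA alone. All are of total RNA, and levels are FPKM, counted fragments scaled for transcript length and library size. Of 20030 genes in the table, 11728 had at least 1 FPKM in at least 1 library and are called measured here. With 1 library a side, no difference has a replicate check and no p-value is given. The control pair serves as background only, and nothing in the labels says that those 2 were separate cultures. No label or protocol used here states siRNA amounts, hours of treatment or whether single knockdowns received filler siRNA.

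SP1 and SP3 are sister zinc finger proteins that recognise the same GC-rich element, the GC box, found near the start sites of many housekeeping and cell cycle genes. SP1 mainly activates through glutamine-rich domains. SP3 has similar domains but also an inhibitory region that is modified by SUMO, and it is known to activate some promoters and to repress others. Because both proteins compete for one site, lowering SP3 where SP1 has been lowered too shows which levels then differ.

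The SP3 transcript was lower where the SP3 siRNA had been added. SP3 stood at 13.3 and 13 FPKM in the controls, 14.3 FPKM with the SP1 siRNA, 5.42 FPKM with the SP3 siRNA alone and 6.67 FPKM with both. The 2 libraries that received the SP3 siRNA did not overlap with the 3 that did not. With both siRNAs SP3 was at 46.5% of its level with the SP1 siRNA (95% counting interval 42.3 to 51.0%). SP1 stood at 36.6 and 37.2 FPKM in the controls, 15.8 FPKM with the SP1 siRNA, 27.5 FPKM with the SP3 siRNA and 16.1 FPKM with both. The SP1 level of the pair compared here thus differed by less than counting error, with both siRNAs at 102% of the SP1 siRNA library (90.3 to 114%). Intervals here and below are exact and come from whole reads recovered from the FPKM values, and they cover counting error only.

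**Figure D1:**
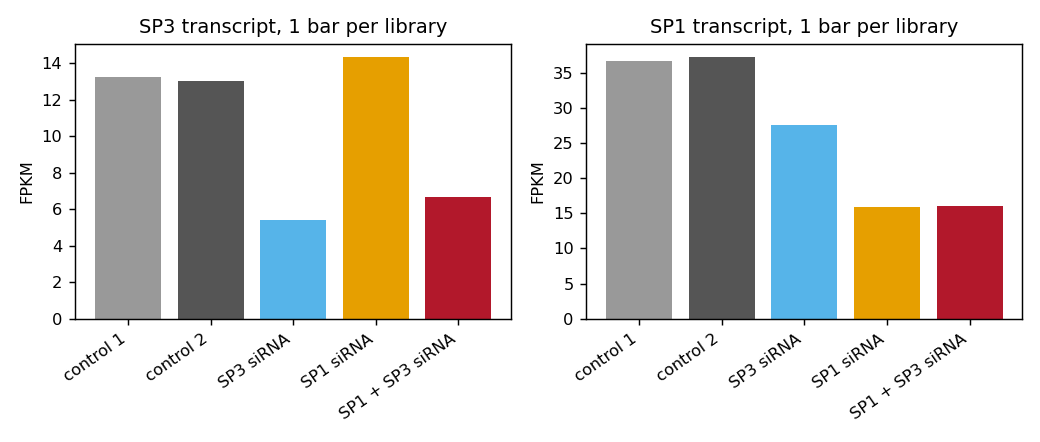
FPKM of SP3 (left) and SP1 (right) in each of the 5 libraries, 1 bar per library, with axes from 0. SP3 is low in the 2 libraries that received its siRNA (5.42 and 6.67 FPKM), and SP1 is alike in the pair compared (15.8 and 16.1 FPKM).

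A total of 145 genes was at least 2-fold higher and 249 were at least 2-fold lower with both siRNAs than with the SP1 siRNA, which is 1.24% and 2.12% of measured genes. Fold here means a difference on the log2(FPKM + 1) scale, on which changes of weakly expressed genes appear smaller than they are. At the 1.5-fold mark, from here on the meaning of "rose" and "fell", 793 genes rose (6.76%) and 1213 fell (10.3%). Counts of genes in lists below are to be read against these 2 shares. Between the controls, 1 gene was 2-fold higher and 1 was 2-fold lower (0.00853% each), and 12 were 1.5-fold higher (0.102%) and 21 lower (0.179%). The difference had an SD of 0.447 across genes and a median of -0.05, against an SD of 0.133 and a median of -0.03 for the control pair. All but 1 of the 394 genes past 2-fold had a counting interval that left out equality. They were chosen by the gap between the same reads, so this was close to fixed in advance. Between the controls, 19% of genes with at least 20 reads also lay past a 95% counting limit. The genes nearest the 2-fold mark lay at 1.001 and 0.9998 for the rises and at -1.001 and -0.9991 for the falls. The excess of lower genes was not there with a pseudocount of 5 in place of 1, when 62 genes were 2-fold higher and 59 lower. At 1.5-fold it was not there once the mean over the pair had to reach 5 FPKM, when 624 genes rose and 608 fell.

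**Figure D2:**
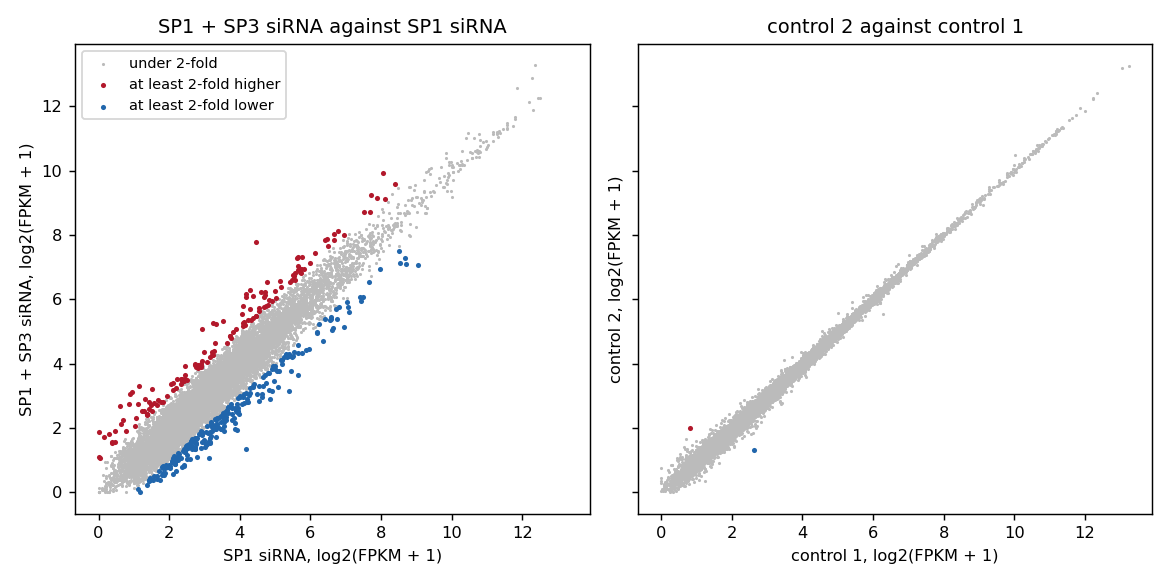
Levels of 11728 genes as log2(FPKM + 1), with both siRNAs against the SP1 siRNA (left) and control 2 against control 1 (right). Each point is 1 gene, and 145 genes (red) and 249 genes (blue) lie at least 2-fold from equality on the left, against 1 and 1 on the right.

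The higher genes were the more abundant. Among 533 measured genes with a mean over 100 FPKM in the pair, 3.75% were 2-fold higher and 1.88% were 2-fold lower. Among 4647 genes under 5 FPKM the shares were 0.753% and 2.24%. The median level was 19.8 FPKM for the 2-fold higher genes and 6.39 FPKM for the 2-fold lower ones. In 102 of the 145 higher genes the SP1 siRNA library was the lowest of all 5, and in 54 the library with both siRNAs was the highest of all 5. Of the 249 lower genes, 197 were highest of all 5 with the SP1 siRNA and 108 were lowest of all 5 with both. These counts partly follow from choosing genes by the gap between the 2 libraries, and they say which library holds the outer value.

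Promoter sequence is shown for 5 genes on which the results below turn: VGF and MAOB, which were higher with both siRNAs, AKAP12 and AXL, which were lower, and RRM2, which moved one way with SP3 siRNA on top of SP1 siRNA and the other way without SP1 siRNA. They are RefSeq sequences of GRCh38.p14, 250 bases before to 50 after the start, matched by gene symbol, printed 5′ to 3′ in the direction of the gene. Capitals mark the GC box letters GGGCGG and their reverse complement CCGCCC, overlapping matches included. No source used here names the build the authors used.
VGF (chr7:101165520-101165819, minus strand): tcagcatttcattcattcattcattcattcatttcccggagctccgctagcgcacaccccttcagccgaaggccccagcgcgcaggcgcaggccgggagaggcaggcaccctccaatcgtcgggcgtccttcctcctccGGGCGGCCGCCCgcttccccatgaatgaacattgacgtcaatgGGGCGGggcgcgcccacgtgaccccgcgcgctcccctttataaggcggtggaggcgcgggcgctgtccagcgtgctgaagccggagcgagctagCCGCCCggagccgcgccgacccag
MAOB (chrX:43882401-43882700, minus strand): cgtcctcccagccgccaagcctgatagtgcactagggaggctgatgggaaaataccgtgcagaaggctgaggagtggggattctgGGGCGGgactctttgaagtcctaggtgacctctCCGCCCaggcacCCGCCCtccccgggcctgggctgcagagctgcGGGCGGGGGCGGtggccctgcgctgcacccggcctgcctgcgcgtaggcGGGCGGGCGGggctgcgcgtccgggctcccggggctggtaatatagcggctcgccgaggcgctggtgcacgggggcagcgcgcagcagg
AKAP12 (chr6:151239717-151240016, plus strand): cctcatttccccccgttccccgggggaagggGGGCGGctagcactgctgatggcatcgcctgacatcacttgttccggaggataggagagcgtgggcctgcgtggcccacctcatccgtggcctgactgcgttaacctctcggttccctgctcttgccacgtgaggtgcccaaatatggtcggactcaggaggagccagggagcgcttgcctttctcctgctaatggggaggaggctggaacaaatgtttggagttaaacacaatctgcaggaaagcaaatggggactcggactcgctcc
AXL (chr19:41218973-41219272, plus strand): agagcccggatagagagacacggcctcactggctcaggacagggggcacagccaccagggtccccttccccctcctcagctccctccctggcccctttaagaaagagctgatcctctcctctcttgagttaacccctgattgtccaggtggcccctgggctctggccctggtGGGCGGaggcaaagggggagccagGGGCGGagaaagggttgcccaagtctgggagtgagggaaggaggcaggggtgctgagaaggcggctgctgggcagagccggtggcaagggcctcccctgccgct
RRM2 (chr2:10122489-10122788, plus strand): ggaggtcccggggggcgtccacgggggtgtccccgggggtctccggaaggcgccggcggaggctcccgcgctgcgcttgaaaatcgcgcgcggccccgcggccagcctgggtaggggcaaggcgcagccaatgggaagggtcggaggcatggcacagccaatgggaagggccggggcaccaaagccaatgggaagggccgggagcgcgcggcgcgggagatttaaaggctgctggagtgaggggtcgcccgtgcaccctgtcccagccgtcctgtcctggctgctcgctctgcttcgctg

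The MAOB window held 7 GC box matches, VGF 4, AXL 2, AKAP12 1 and RRM2 none. A promoter was listed for 9273 of the 11728 measured genes, and 72.4% of these held at least 1 match, against 44.6% of all 27305 promoters listed. Among the 2-fold higher genes 71 of 103 held one (68.9%), and among the 2-fold lower genes 150 of 183 did (82.0%). At least 2 matches were held by 53.4% of the higher, 60.1% of the lower and 48.4% of all measured genes. The median GC content of the windows was 64.7%, 67.3% and 65.7% in that order. A match is a description of letters and not of binding.

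The steepest rise was that of VGF, a granin-like peptide precursor of neuroendocrine cells and neurons. VGF stood at 35.9 and 34.3 FPKM in the controls, 20.9 FPKM with the SP1 siRNA, 241 FPKM with the SP3 siRNA and 221 FPKM with both. The 2 libraries with SP3 siRNA were far above the other three, and the SP1 siRNA library was the lowest. With both siRNAs VGF was 10.6-fold above the SP1 siRNA library (9.90- to 11.3-fold), a log2 difference of 3.34. SCG2, which encodes the granule protein secretogranin II, stood at 2.88 and 3.47 FPKM in the controls, 8.38 FPKM with the SP1 siRNA, 30.4 FPKM with the SP3 siRNA and 37.8 FPKM with both, a 4.51-fold rise (4.0- to 5.10-fold). Here the SP1 siRNA alone already lay above the controls, and adding the SP3 siRNA gave the highest level of all 5. RGS2, a brake on G protein signalling, followed another order, with 47.7 and 49.2 FPKM in the controls, 18.7 FPKM with the SP1 siRNA, 238 FPKM with the SP3 siRNA and 77.4 FPKM with both. Its level with both siRNAs was thus above the controls but well under that with the SP3 siRNA alone.

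The other 11 of the 14 largest rises included 6 histone genes, HIST2H2BF, HIST1H2BJ, HIST2H2BE, HIST1H2BD, HIST1H2BC and HIST1H2AC, with log2 differences of 2.15, 2.15, 1.99, 1.91, 1.90 and 1.71. The histone list holds HIST2H2BE, HIST1H2BD and HIST1H2AC of these but not the other three. Of its 14 measured genes 6 rose (42.9%, against 6.76% of all genes) and none fell, with a median of 0.54. Without SP1 siRNA the median was 0.73, and the controls differed by a median of 0.26. Several of the named genes also differed between the controls, HIST1H2BJ by 0.65 and HIST2H2BE by 0.57, with control 2 the higher. Clustered histone genes are near-identical copies, so their reads may be shared. MT2A, a metallothionein that buffers zinc and copper, stood at 1164 and 1138 FPKM in the controls, 265 FPKM with the SP1 siRNA, 1567 FPKM with the SP3 siRNA and 966 FPKM with both. The SP1 siRNA library was the low one here, and with both siRNAs the level was back near the controls (3.64-fold above the SP1 siRNA, 3.46 to 3.84). CDKN1C, the p57 inhibitor of cyclin-dependent kinases, stood at 35.5 and 36.5 FPKM in the controls, 19.9 FPKM with the SP1 siRNA, 107 FPKM with the SP3 siRNA and 68.1 FPKM with both (3.42-fold, 3.12 to 3.75). The immediate early factors FOS and EGR1 rose by 1.78 and 1.76, and PSMB7, a catalytic subunit of the proteasome, by 1.66.

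The largest falls were of genes that the SP1 siRNA library held at an high level. TEX19, a germ cell gene, stood at 0.331 and 0.504 FPKM in the controls, 17.0 FPKM with the SP1 siRNA, 1.09 FPKM with the SP3 siRNA and 1.57 FPKM with both. Only the SP1 siRNA library stood apart, and the level with both siRNAs was 9.25% of it (6.76 to 12.4%), a log2 difference of -2.81. TOP1MT, the mitochondrial topoisomerase, was also highest with the SP1 siRNA but lower than the controls in the other knockdowns, with 10.6 and 10.2 FPKM in the controls, 41.1 FPKM with the SP1 siRNA, 6.22 FPKM with the SP3 siRNA and 7.90 FPKM with both (-2.24). MMP11, a stromelysin, and RBM12B, an RNA-binding protein gene, fell by 1.99 and 1.96 on the log2 scale, from 14.2 to 2.83 FPKM and from 27.9 to 6.41 FPKM, where the controls ran from 3.15 to 3.60 FPKM for MMP11 and from 5.30 to 6.65 FPKM for RBM12B.

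A second shape among the falls was a level near the controls with the SP1 siRNA and a lower one in each library with SP3 siRNA. AXL, a receptor tyrosine kinase, stood at 24.2 and 22.9 FPKM in the controls, 22.3 FPKM with the SP1 siRNA, 4.77 FPKM with the SP3 siRNA and 6.23 FPKM with both. The level with both siRNAs was 27.9% of that with the SP1 siRNA (25.1 to 31.0%). TNFAIP2, a gene induced by tumour necrosis factor, stood at 40.3 and 34.7 FPKM in the controls, 42.9 FPKM with the SP1 siRNA, 12.3 FPKM with the SP3 siRNA and 12.7 FPKM with both (-1.68). RGS10, a regulator of G protein signalling, fell by 1.79 to 34.6 FPKM, under the 61.1 FPKM seen with the SP3 siRNA alone. AKAP12, a scaffold that binds protein kinase A, combined both shapes, at 240 and 223 FPKM in the controls, 530 FPKM with the SP1 siRNA, 79.2 FPKM with the SP3 siRNA and 132 FPKM with both (-1.99). The rest of the 14, from -2.01 to -1.65, included ISYNA1, inositol phosphate synthase, PRCP, a lysosomal carboxypeptidase, TMEM64 and IL32, a proinflammatory cytokine gene. CA9, a hypoxia-induced carbonic anhydrase, and LCN2, the iron-carrier protein lipocalin 2, were also among them. Not all of these had the second shape. CA9 stood at 13.6 FPKM with the SP1 siRNA, against 4.55 and 3.96 FPKM in the controls and 3.50 FPKM with both siRNAs. With the SP1 siRNA LCN2 stood at 81.2 FPKM, against 48.4 and 47.9 FPKM in the controls. ISYNA1 stood at 49.2 FPKM there, against 31.7 and 33.9 FPKM in the controls.

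**Figure D3:**
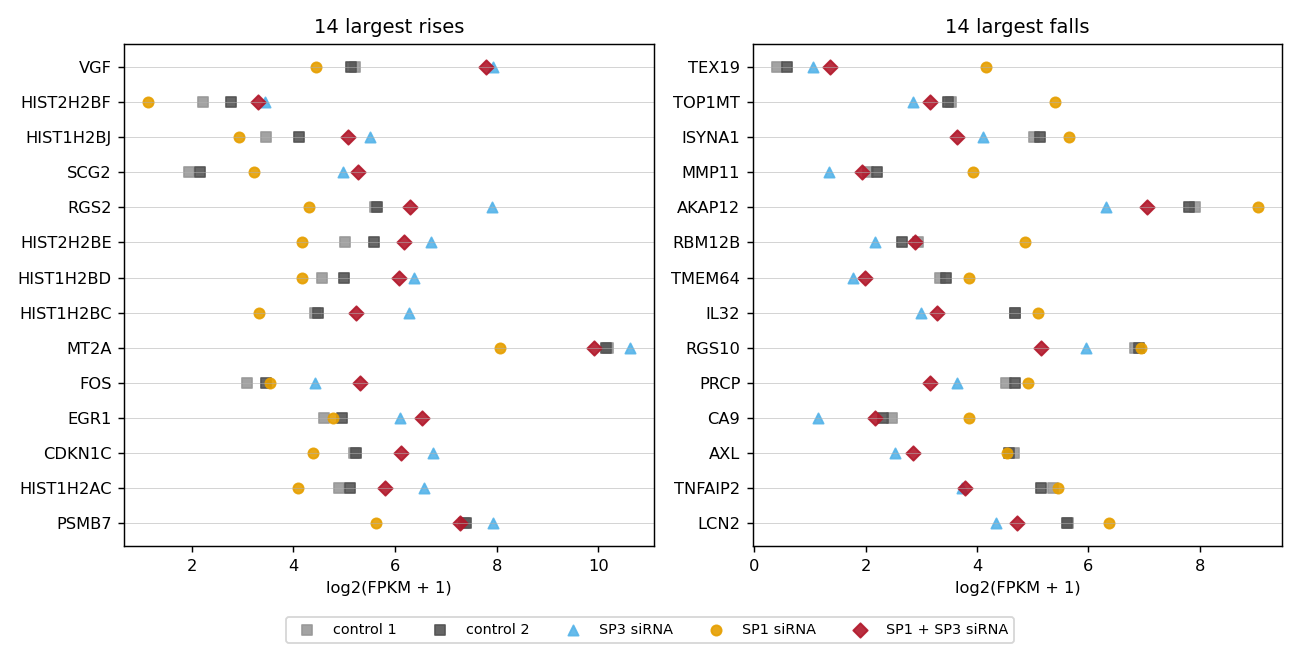
Levels, as log2(FPKM + 1), of the 14 genes with the largest rises (left) and the 14 with the largest falls (right), with 1 point per library. The falls include a gene where the SP1 siRNA library alone stands apart (TEX19) and genes where both libraries with SP3 siRNA are low (AXL, TNFAIP2).

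SP3 was also knocked down without SP1 siRNA, and that difference, SP3 siRNA minus the control mean, shares no library with the difference described so far. Across the 11728 genes, which are not independent replicates, the differences on the 2 backgrounds correlated with a Pearson r of 0.476 and a Spearman rho of 0.464, against 0.0419 and 0.0261 for the difference between the controls. Without SP1 siRNA, SP3 siRNA left 10.9% of measured genes 1.5-fold higher and 14.1% lower, and 3% and 4.54% past 2-fold. Of the 145 genes 2-fold higher on top of SP1 siRNA, 94 (64.8%) were at least 1.5-fold higher without SP1 siRNA as well, 4 were at least 1.5-fold lower and 47 were in between. Of the 249 genes 2-fold lower, 154 (61.8%) were at least 1.5-fold lower there too, 3 were higher and 92 were in between. At the 2-fold mark on both sides, the overlap was 63 higher genes, 43.4% of the 145 and 17.9% of the 352 that were higher without SP1 siRNA. It was 84 lower genes, 33.7% of the 249 and 15.8% of the 533.

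Genes that rose most on both backgrounds were VGF, SCG2, RGS2, HIST1H2BJ, HIST1H2BC and MAOB. MAOB, the monoamine oxidase B gene and a textbook target of the SP family, stood at 19.4 and 17.6 FPKM in the controls, 23.3 FPKM with the SP1 siRNA, 59.9 FPKM with the SP3 siRNA and 73.3 FPKM with both. Its log2 difference was 1.61 on top of SP1 siRNA and 1.64 without SP1 siRNA. Genes that fell most on both were AKAP12, AXL, TMEM64, IL32, TNFAIP2 and SLC1A3, a glutamate transporter gene. For these 6 the differences ran from -1.99 to -1.52 on top of SP1 siRNA and from -2.09 to -1.53 without SP1 siRNA. IL32 stood at 24.8 and 24.6 FPKM in the controls, 33.2 FPKM with the SP1 siRNA, 6.98 FPKM with the SP3 siRNA and 8.70 FPKM with both.

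Opposite movement was less common. At the 1.5-fold mark, 45 genes were higher on top of SP1 siRNA and lower without SP1 siRNA, and 17 were lower and then higher, beside 306 that were higher and 513 that were lower on both. RRM2, the inducible subunit of ribonucleotide reductase that makes deoxynucleotides in S phase, stood at 66.1 and 64.5 FPKM in the controls, 18 FPKM with the SP1 siRNA, 17.2 FPKM with the SP3 siRNA and 40 FPKM with both. Each single knockdown was low, and the double knockdown lay between them and the controls, 2.22-fold above the SP1 siRNA library (2.06 to 2.40). MAD2L1, a spindle checkpoint protein, stood at 34.4 and 33.0 FPKM in the controls, 11.7 FPKM with the SP1 siRNA, 14.3 FPKM with the SP3 siRNA and 24.0 FPKM with both. PBK and MELK, mitotic kinases, differed by 0.82 each on top of SP1 siRNA, and by -1.69 and -0.79 without SP1 siRNA. In the other direction ARL14EPL stood at 8.06 and 7.84 FPKM in the controls, 97.3 FPKM with the SP1 siRNA, 19.8 FPKM with the SP3 siRNA and 32.3 FPKM with both. CCDC112, CUL7, a cullin scaffold of ubiquitin ligases, and PABPC4, a poly(A)-binding protein, fell by 1.05, 0.79 and 0.74 on top of SP1 siRNA and were higher by 0.86, 0.90 and 1.04 without SP1 siRNA. Whether the differences on the 2 backgrounds differ was not tested, with 1 library for each.

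**Figure D4:**
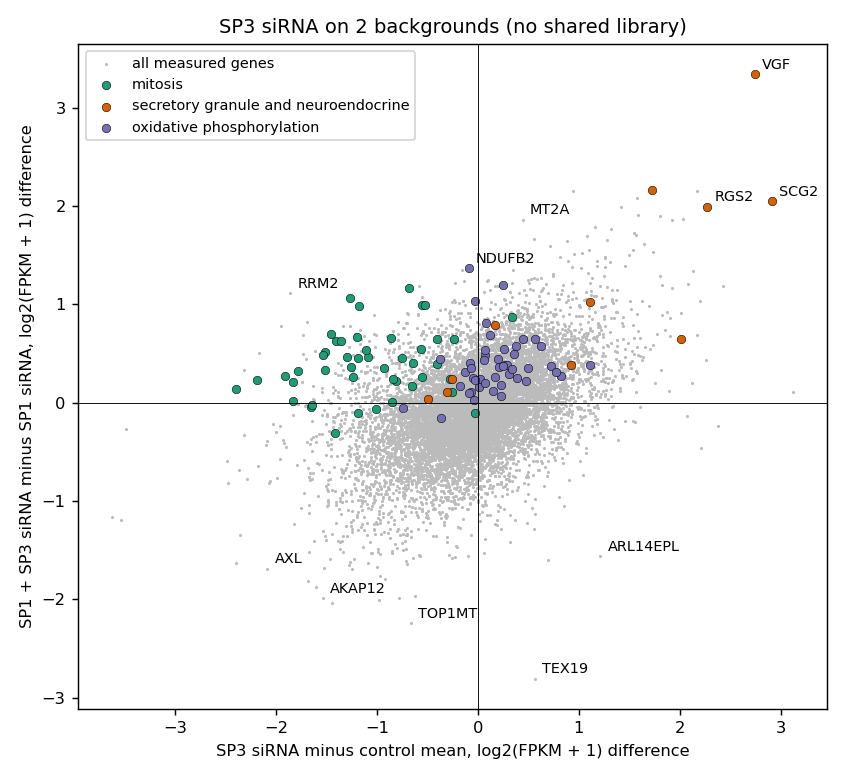
Difference with SP3 siRNA on top of SP1 siRNA (vertical) against the difference with SP3 siRNA without SP1 siRNA (horizontal), both as log2(FPKM + 1), with 1 point per gene and 3 gene lists in colour. Mitosis genes lie mostly to the left and above the line of no change, with medians of -1.15 and 0.38, while secretory granule genes lie mostly to the right and above. SCG3, CHGB and SYP of the latter were measured only through libraries with SP3 siRNA, so their place is a description.

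Of 46 measured mitosis genes 13 rose (28.3%, against 6.76% of all genes) and none fell, with a median of 0.38, and 40 lay above 0 against 45.0% of all genes. All 46 were below both controls with the SP1 siRNA. With both siRNAs 41 still were, and 37 were above their level in either single knockdown, against 21.1% of all measured genes. The share of all measured genes below both controls was not counted, so the counts of 46 and 41 have no background. Against the control mean, the list had medians of -1.10 with the SP1 siRNA and -0.70 with both. Over all measured genes these medians were 0.06 and 0.01. NUF2, part of the kinetochore complex that holds microtubules, stood at 12.2 and 10.1 FPKM in the controls, 4.14 FPKM with the SP1 siRNA, 6.52 FPKM with the SP3 siRNA and 10.5 FPKM with both. CDCA5, which protects sister chromatid cohesion, rose by 1.06, BIRC5, the survivin subunit of the chromosomal passenger complex, by 0.99, and UBE2C, the ubiquitin-conjugating enzyme of the anaphase-promoting complex, by 0.99. The control pair also differed on this list, with control 2 lower by a median of -0.20, and the part of that variation in the rises was not tested. In bulk RNA, fewer cells of a kind and less RNA per cell cannot be told apart. SP3 siRNA without SP1 siRNA gave a median of -1.15, with 35 lower and none higher.

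Of 45 DNA replication genes 8 rose (17.8%, against 6.76% of all genes) and none fell (median 0.23). PCNA, the sliding clamp of DNA polymerase, rose by 0.91 from 37.3 to 70.9 FPKM, above the 56.9 and 53.7 FPKM of the controls. GINS1, a subunit of the replicative helicase, rose by 0.90. On this list 31 of 45 genes were above either single knockdown, against 21.1% of all measured genes. SP3 siRNA without SP1 siRNA gave a median of -0.62, with 25 lower and none higher. Of 41 DNA repair genes 2 rose (4.88%) and 3 fell (7.32%), against 6.76% and 10.3% of all genes, with a median of 0.17. ABRAXAS1, a BRCA1-A complex scaffold, fell from 21.4 to 7.39 FPKM, BARD1, the partner of BRCA1, fell from 2.56 to 1.22 FPKM, and FANCD2, the effector of the Fanconi pathway, rose from 3.25 to 5.74 FPKM.

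Of 25 cyclins, kinases, their inhibitors and E2F factors 6 rose (24%) and 3 fell (12%), with a median of 0.09. Over all genes these shares were 6.76% and 10.3%. Besides CDKN1C, E2F1, the transcription factor that drives S phase genes, rose from 1.81 to 5.53 FPKM and CDKN2D, the p19 inhibitor, from 12.9 to 30.8 FPKM, each near its control levels of 4.77 and 5.33 FPKM for E2F1 and 31.8 and 34.8 FPKM for CDKN2D. Cyclin E1 (CCNE1), chosen after its value was seen, stood at 15.5 and 17.1 FPKM in the controls, 26.8 FPKM with the SP1 siRNA, 78.2 FPKM with the SP3 siRNA and 55.8 FPKM with both. CDKN1A, the p21 inhibitor and a textbook SP1 target, went the other way, at 343 and 329 FPKM in the controls, 200 FPKM with the SP1 siRNA, 198 FPKM with the SP3 siRNA and 92.3 FPKM with both. The double knockdown was the lowest of all 5 libraries for p21, at 46.1% of the SP1 siRNA library (44.3 to 48.0%). On the list of p53 targets, which holds CDKN1A as well, 3 of 31 genes rose and 3 fell (9.68% each, near the 6.76% and 10.3% of all genes), with a median of -0.22. GADD45A, a growth arrest gene, rose by 1.05 and GDF15, a stress-induced cytokine, fell by 0.79.

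Several genes of regulated secretion were higher with both siRNAs. Of 22 genes on the secretory granule and neuroendocrine list 11 were measured, and 7 of these rose and none fell, against 6.76% and 10.3% of all genes. SCG3, CHGB and SYP reached 1 FPKM only in libraries with SP3 siRNA, so the count over measured members is a description and supports nothing. Beside VGF, SCG2 and RGS2, SYP, the synaptic vesicle protein synaptophysin, stood at 0.917 and 0.827 FPKM in the controls, 0.857 FPKM with the SP1 siRNA, 5.17 FPKM with the SP3 siRNA and 7.31 FPKM with both, an 8.53-fold rise (5.90- to 12.7-fold). The 2 libraries with SP3 siRNA stood apart from the other three. The list was also drawn up with the rises of VGF and SCG2 in these samples known. RGS2, described above as a brake on G protein signalling, is on this list and among the 7 that rose. CPE and ENO2, the neuroendocrine markers carboxypeptidase E and neuron-specific enolase, chosen after their values were seen, lay at 0.10 and 0.03.

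Of 34 measured immediate early genes and outputs of ERK signalling 12 rose (35.3%, against 6.76% of all genes) and 5 fell (14.7%, against 10.3% of all genes), with a median of 0.37. FOS stood at 7.48 and 10.1 FPKM in the controls, 10.6 FPKM with the SP1 siRNA, 20.6 FPKM with the SP3 siRNA and 38.9 FPKM with both, and EGR1 at 23.4 and 30.0, 26.4, 67.6 and 91.9 FPKM in the same order. For both factors the double knockdown was the highest of all 5 libraries. CYR61, a matricellular target of YAP and serum signals, rose by 1.44 from a low level of 34.2 FPKM with the SP1 siRNA to 94.2 FPKM, under the controls at 99.6 and 131 FPKM. MYC fell, with 91.9 and 85.8 FPKM in the controls, 136 FPKM with the SP1 siRNA, 44.1 FPKM with the SP3 siRNA and 47.8 FPKM with both (35.3% of the SP1 siRNA library, 33.9 to 36.7%). The controls differed by a median of 0.10 on this list, by 0.39 for FOS and by 0.34 for EGR1, and the part of that variation was not tested. MYC is also on the list of WNT targets, where 5 of 21 fell (23.8%, against 10.3% of all genes). On that list 1 gene, the WNT antagonist DKK1, rose by 0.70 (4.76%, against 6.76% of all genes).

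Among 28 measured growth factor receptors and ligands 9 fell (32.1%, against 10.3% of all genes), 1 rose and 18 passed neither mark, with a median of -0.32. EGFR, the epidermal growth factor receptor, stood at 18.8 and 17.4 FPKM in the controls, 9.24 FPKM with the SP1 siRNA, 4.41 FPKM with the SP3 siRNA and 3.34 FPKM with both. All 3 knockdown libraries were below the controls, and the double knockdown was the lowest, at 36.1% of the SP1 siRNA library (32.1 to 40.6%). FGFR4, a fibroblast growth factor receptor, fell by 1.22 to 14.8 FPKM and EFNA1, an ephrin ligand, by 1.19 to 4.57 FPKM. Among genes chosen after their values were seen, IGF1R, the insulin-like growth factor receptor, fell by 1.09 to 2.24 FPKM, and the EGFR ligands went apart, with EREG falling by 1.13 to 59.5 FPKM and AREG rising by 0.98 to 709 FPKM.

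Of 47 oxidative phosphorylation genes 7 rose (14.9%, against 6.76% of all genes) and none fell, with a median of 0.36. Above 0 lay 45 of the 47, against 45.0% of all genes. NDUFB2, a complex I subunit, stood at 40.8 and 44.0 FPKM in the controls, 6.97 FPKM with the SP1 siRNA, 39.7 FPKM with the SP3 siRNA and 19.5 FPKM with both. The rise of 2.80-fold (2.03 to 3.92) left it under its control level. NDUFS3, another complex I subunit, rose from 22.2 to 52.1 FPKM, CYC1, the cytochrome of complex III, from 46.6 to 96.6 FPKM and ATP5F1B, the catalytic subunit of ATP synthase, from 293 to 515 FPKM. With both siRNAs 36 of the 47 genes were above both controls and 9 were below both. These shares were not counted over all measured genes, so the 2 counts have no background. Against the control mean, the list had medians of -0.17 with the SP1 siRNA and 0.18 with both. Over all measured genes those medians were 0.06 and 0.01. Of 36 proteasome genes 8 rose (22.2%) and 2 fell (5.56%), against 6.76% and 10.3% of all genes, with a median of 0.33. PSMB7 stood at 164 and 167 FPKM in the controls, 48.3 FPKM with the SP1 siRNA, 243 FPKM with the SP3 siRNA and 155 FPKM with both, and PSMB6, the neighbouring catalytic subunit of the core, at 101 and 90.9, 25.1, 132 and 69.7 FPKM in that order. The 2 that fell were PSME1 (-0.97) and PSME2 (-0.88, chosen after its value was seen), which form the interferon-inducible cap.

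Of 39 splicing factors 8 rose (20.5%, against 6.76% of all genes), 1 fell and 30 passed neither mark, with a median of 0.21. SRSF2, a serine and arginine rich factor, rose from 34.8 to 82.0 FPKM, with 42.3 and 42.9 FPKM in the controls, and HNRNPK from 46.1 to 80.4 FPKM, still under its controls at 174 and 166 FPKM. U2AF1 rose by 1.29, but it has a near-identical copy with which reads may be shared. Of 40 ribosome biogenesis genes 9 fell (22.5%, against 10.3% of all genes), 1 rose and 30 passed neither mark, with a median of -0.29. NOLC1, a nucleolar chaperone of small nucleolar ribonucleoproteins, stood at 26.6 and 28.0 FPKM in the controls, 58.0 FPKM with the SP1 siRNA, 23.5 FPKM with the SP3 siRNA and 20.4 FPKM with both. LTV1 and PNO1, assembly factors of the small subunit, fell by 1.01 and 0.99, and POLR1B, a core subunit of RNA polymerase I, by 0.81. Of 76 cytosolic ribosomal protein genes 2 rose (2.63%) and none fell (median -0.10), and both, RPL21 and RPS10, have near-identical or overlapping copies.

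Of 27 cholesterol synthesis genes 2 rose and 2 fell (7.41% each, against 6.76% and 10.3% of all genes), with a median of -0.05. With both siRNAs 26 of 27 were below both controls, and with the SP1 siRNA alone 24 already were. These shares were not counted over all measured genes, so the 2 counts have no background. Against the control mean, the list had medians of -0.54 with the SP1 siRNA and -0.61 with both. Over all measured genes those medians were 0.06 and 0.01. INSIG1, which holds the sterol sensor in the endoplasmic reticulum, rose by 0.76. Of 21 fatty acid synthesis genes 3 fell (14.3%, against 10.3% of all genes) and none rose, with a median of -0.28. The falls were the elongases ELOVL6 (-0.91) and ELOVL7 (-0.79) and the desaturase FADS2 (-0.89). Of 24 glycolysis genes 1 rose (4.17%) and 2 fell (8.33%), with a median of -0.06. The phosphofructokinase isoforms PFKP and PFKM were at 0.72 and -0.72. Of 22 hypoxia response genes 4 fell (18.2%, against 10.3% of all genes) and none rose, with a median of -0.18. PLOD1, a collagen lysyl hydroxylase, fell by 1.48 to 61.1 FPKM and ANGPTL4, an inhibitor of lipoprotein lipase, from 372 to 139 FPKM. Both ended below the controls. Without SP1 siRNA, SP3 siRNA gave medians of -0.80 for cholesterol, -0.50 for fatty acid, -0.48 for glycolysis and -0.78 for hypoxia genes.

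**Figure D5:**
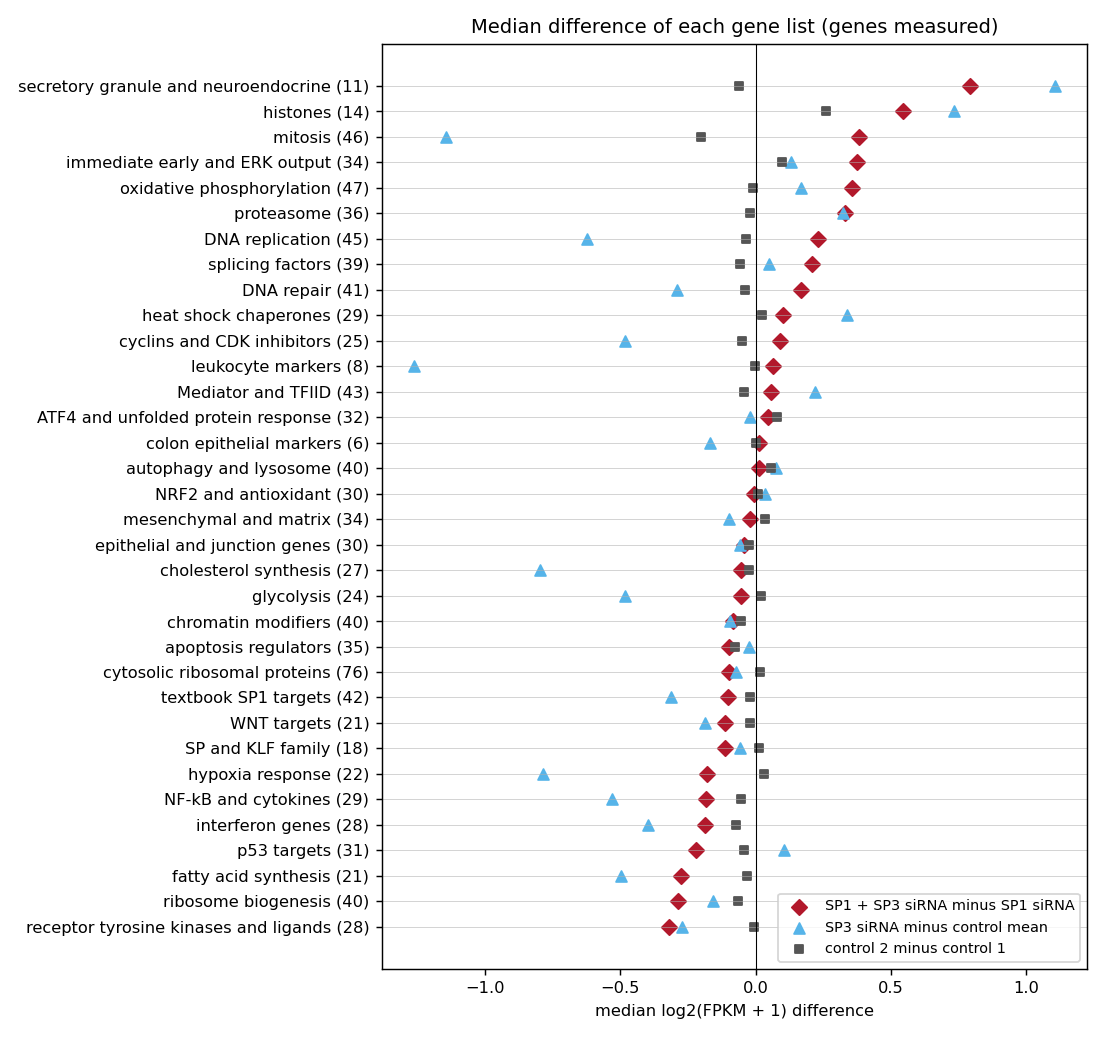
Median log2(FPKM + 1) difference of each gene list with at least 6 measured genes, for both siRNAs minus SP1 siRNA (diamonds), SP3 siRNA minus the control mean (triangles) and control 2 minus control 1 (squares). The diamonds run from -0.32 for receptor tyrosine kinases to 0.79 for secretory granule genes, and mitosis genes have the widest gap between diamond and triangle. SCG3, CHGB and SYP of the secretory granule list were measured only through libraries with SP3 siRNA, so its medians are a description.

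Inflammatory genes went both ways. On the NF-kB and cytokine list 7 of 29 measured genes fell (24.1%) and 4 rose (13.8%), against 10.3% and 6.76% of all genes, with a median of -0.18. Beside TNFAIP2 and LCN2, IL18, an epithelial cytokine, stood at 61.3 and 59.0 FPKM in the controls, 61.5 FPKM with the SP1 siRNA, 32.8 FPKM with the SP3 siRNA and 21 FPKM with both, and CSF1, the macrophage growth factor, fell from 5.68 to 1.66 FPKM. Among genes chosen after their values were seen, SAA1, an acute phase protein, stood at 21 and 20.6 FPKM in the controls, 3.47 FPKM with the SP1 siRNA, 0.877 FPKM with the SP3 siRNA and 0.954 FPKM with both. CCL20, a chemokine, rose by 0.78 (from 5 to 17 reads) but only to 1.38 FPKM, against 12.8 and 12 FPKM in the controls. SAA1 also rests on few reads in the pair, 38 with the SP1 siRNA and 10 with both. Of 28 interferon genes 3 rose (10.7%) and 4 fell (14.3%), near the 6.76% and 10.3% of all genes, with a median of -0.19.

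Markers of other cells were low in both libraries of the pair. Of 10 leukocyte markers 8 were measured, and 1 of these, CD52, rose (0.78, from 1 to 7 reads) and none fell. The list summed to 58.0 FPKM with the SP1 siRNA and 77.6 FPKM with both, of which CD68, a lysosomal protein that epithelial lines also express, gave 56.2 and 75.3 FPKM. TYROBP was at 0 in both libraries, and PTPRC, the pan-leukocyte antigen CD45, was at 0.0198 and 0 FPKM. In the controls LYZ reached 11.1 and 12.2 FPKM, against 0.258 and 0.0449 FPKM in the pair. Without SP1 siRNA, 7 of the 8 were 1.5-fold lower than the controls and 1 was higher, with a median of -1.26. Several members reached 1 FPKM only in the controls, among them LYZ, LAPTM5 and CD52 but not these alone. This count and median are therefore a description and support nothing. The part of these markers in the differences from the controls was not tested. Of 7 fibroblast markers 1 was measured and of 4 endothelial markers none. Fibroblast markers summed to 6.27 and 4.49 FPKM, nearly all of it COL1A1, and endothelial markers to 0.273 and 0.364 FPKM. Of 7 colon epithelial markers 6 were measured, 1 fell and none rose. VIL1 was at 0 in the pair and CDX2 was under 1 FPKM (0.557 and 0.583 FPKM). EPCAM, CDH1, KRT8 and KRT19 did not pass 1.5-fold.

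KRT18, the partner of KRT8 in the filaments of simple epithelia, was the marker that fell. KRT18 stood at 750 and 740 FPKM in the controls, 408 FPKM with the SP1 siRNA, 284 FPKM with the SP3 siRNA and 153 FPKM with both, 37.6% of the SP1 siRNA library (36.2 to 39.1%). KRT8 stood at 1749 and 1799 FPKM in the controls, 1737 FPKM with the SP1 siRNA, 2361 FPKM with the SP3 siRNA and 2253 FPKM with both. The difference of KRT8, 0.38 on the log2 scale, did not pass the mark. Of 30 epithelial and junction genes 6 fell (20%, against 10.3% of all genes) and 2 rose (6.67%, against 6.76%), with a median of -0.04. The falls included KRT7 (-1.35), KRT80 (-1.31) and DSG2 (-1.04), the desmosomal cadherin desmoglein 2. Of 34 mesenchymal and matrix genes 7 rose (20.6%) and 6 fell (17.6%), against 6.76% and 10.3% of all genes. Their median was -0.02. TIMP1, an inhibitor of matrix metalloproteinases, stood at 66.1 and 67.5 FPKM in the controls, 88.2 FPKM with the SP1 siRNA, 152 FPKM with the SP3 siRNA and 233 FPKM with both, while its relative TIMP3 fell from 2.83 to 0.745 FPKM.

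Stress and survival lists held a few large changes. Of 30 NRF2 and antioxidant genes 6 rose (20%) and 5 fell (16.7%), against 6.76% and 10.3% of all genes. The median was -0.01. PRDX5, a mitochondrial peroxiredoxin, rose from 102 to 261 FPKM, under its controls at 310 and 314 FPKM. TXNRD1, thioredoxin reductase, stood at 133 and 132 FPKM in the controls, 133 FPKM with the SP1 siRNA, 55.0 FPKM with the SP3 siRNA and 52.9 FPKM with both, and HMOX1, heme oxygenase 1, fell from 14.5 to 5.10 FPKM. Of 32 ATF4 and unfolded protein genes 4 rose (12.5%) and 1 fell (3.1%), with a median of 0.05. ASNS, asparagine synthetase, rose from 16.4 to 38.1 FPKM. Of 29 heat shock chaperones 6 rose (20.7%) and 2 fell (6.90%), with a median of 0.10. HSPA1B rose by 1.65, but it shares nearly all of its sequence with HSPA1A and differed by 0.51 between the controls. Of 35 apoptosis regulators 5 rose (14.3%) and 6 fell (17.1%), with a median of -0.10. The pore-forming BAK1 was at 1.04, BOK at -1.23 and the death receptor adaptor FADD at -1.10. Of 40 autophagy and lysosome genes 2 rose and 2 fell (5% each), with a median of 0.01.

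Among the factors themselves, 1 of 18 measured SP and KLF genes rose (5.56%) and 3 fell (16.7%), with a median of -0.11. Over all genes these shares were 6.76% and 10.3%. KLF5, a growth-promoting factor of intestinal crypts, stood at 26.9 and 28.3 FPKM in the controls, 27.7 FPKM with the SP1 siRNA, 76.4 FPKM with the SP3 siRNA and 48.2 FPKM with both. The falls were SP3 itself, which is the siRNA target, KLF3, a repressor (19.8 to 8.93 FPKM), and KLF11 (5.44 to 2.13 FPKM). Of 42 textbook SP1 targets 8 rose (19.0%) and 12 fell (28.6%), against 6.76% and 10.3% of all genes, with a median of -0.10, and many of these are on the lists above, among them MAOB and E2F1 with the rises and MYC, EGFR and CDKN1A with the falls. Of 40 chromatin modifiers 1 rose (2.5%) and 6 fell (15%), with a median of -0.09. The falls were led by KDM6B, a histone demethylase (-1.08), and SMARCA4, the ATPase of the SWI/SNF complex (-0.98). Of 43 Mediator and TFIID genes, coactivator subunits through which SP1 works, 2 rose (4.65%) and none fell (median 0.06).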

How the data were processed

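Each library has 1 table, in which the authors deposited FPKM values beside gene symbols. The submitters' processing notes list Trimmomatic 0.36, HISAT2 2.0.5, HTSeq 0.9.1 and Cufflinks 2.2.1 without saying what each did. No source used here names the build, the annotation or a strand setting, so reads of overlapping genes cannot be told apart. A gene was kept where 1 or more of the 5 libraries reached 1 FPKM, and differences were taken on log2(FPKM + 1). Whole reads were recovered from the steps of the values for all 17125 genes above 0, within 0.02 reads, with depth set by 106 genes of 1 annotated transcript. For single genes true read numbers may be multiples of those recovered, which would make their intervals too wide. Recovered reads summed to 99.19 to 99.29% of the library denominators, so multiples can apply to a small part of the reads at most. Library denominators were 14678068 to 15970519 reads. Exact 95% conditional binomial intervals came from scipy 1.17.1.

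The rule for names took the siRNA targets, the 14 largest rises and falls (mean of at least 5 FPKM), up to 4 genes per list by size, and 6 same-way and 4 opposite-way genes in each direction across the 2 backgrounds. Other genes are said to be chosen after their values were seen. The members and all 36 lists were chosen with earlier results of these data known. A few genes that the rule takes are not reported here. Of 27 symbols read as dates, none was named. Limma 3.58.1 (R 4.3.3) served as an alternative only.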

Additional observations from a re-analysis of the deposited data

Results flagged for a closer look

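With SP3 siRNA, several named genes passed 1.5-fold in one direction on top of SP1 siRNA and in the other without SP1 siRNA, and the difference between the backgrounds was not tested. On top of SP1 siRNA the log2 differences were 1.11 for RRM2, 0.98 for MAD2L1, 0.82 for PBK, 0.82 for MELK, 1.16 for NUF2, 1.06 for CDCA5, 0.90 for GINS1, 0.76 for INSIG1 and 0.78 for CD52. Without SP1 siRNA those were -1.86, -1.18, -1.69, -0.79, -0.69, -1.27, -0.69, -0.60 and -1.27. CD52 rests on 1 and 7 reads in the pair and reached 1 FPKM only in the controls. The opposite order held for ARL14EPL (-1.56 on top of SP1 siRNA and 1.21 without SP1 siRNA), CCDC112 (-1.05 and 0.86), CUL7 (-0.79 and 0.90) and PABPC4 (-0.74 and 1.04). Among list medians of at least 0.2 in size on each background, mitosis lay at 0.38 on top of SP1 siRNA and -1.15 without SP1 siRNA, and DNA replication at 0.23 and -0.62.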

How the results depend on the processing

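The counts depended on the pseudocount. With 0.1 in place of 1, the 2-fold counts were 247 higher and 667 lower and 1881 genes were 1.5-fold lower. With 5 they were 62 and 59 at 2-fold and 398 and 370 at 1.5-fold, so that the excess of lower genes at 2-fold was no longer there. A mean of at least 5 FPKM in the pair left 110 genes higher and 145 lower at 2-fold, and 624 and 608 at 1.5-fold, so that the excess of lower genes at 1.5-fold was not there. No filter, median-ratio scaling, and the added demand of 3 SD of the control difference moved none of the counts they were run on by over 1.5 times. Limma with the spread of the 2 controls alone, on 1 residual degree of freedom and with no fold threshold, called 2466 genes higher and 3098 lower at an adjusted p under 0.05. It assumes that the lone knockdown libraries vary like the controls. The genes past 2-fold were chosen by the same difference, so their place among its calls supports nothing. Median-ratio scaling shifted the median of all genes by 0.0259, took PFKFB4 across the 1.5-fold mark and changed the sign of 1 list median, that of the NRF2 list. With a pseudocount of 0.1, MED15, MED17, LAPTM5 and LYZ crossed the mark. No named gene past 1.5-fold reversed under either. Leaving out a replicate was not possible, with 1 library a side. No paired analysis was possible because the control group alone has numbered replicates.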
